A study of Mus musculus with 10 samples.

Results

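The 10 genes described here encode heat shock chaperones of the cytosol and mitochondria, together with Hsf1, the transcription factor that switches many of them on. They were chosen by gene name from the deposited count table, which holds 46603 genes, and each name matched 1 row. Their values were read in RNA sequencing libraries of macrophages from 4T1 tumours, 4T1 being an established mouse line of mammary carcinoma cells, grown as a graft. Tumours were digested with enzymes, and viable cells with CD11B and F4/80 on their surface, by which mouse macrophages are commonly sorted, were divided into a fraction with podoplanin (PDPN-positive, named PoEMs by the submitters) and one without it (PDPN-negative). Both fractions came from tumours 1, 2, 4, 5 and 6, which gave 5 libraries in each group. The groups share tumour model, digestion and sort, and the labels name no genotype, treatment, strain or age. They do not say whether each tumour came from its own mouse, so p-values speak for the spread between these tumours. The study's stated subject was the part these macrophages play in lymphatic vessel growth and matrix remodelling, and the chaperones are read here across the same comparison.

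Heat shock proteins bind unfolded or newly made proteins and help them reach or regain their folded state. HSP70 works with HSP40 proteins, which deliver clients and stimulate its ATPase, and with HSP110 proteins, which exchange its nucleotide. HSP90 matures signalling proteins such as kinases and steroid receptors, and HSP60 folds proteins inside mitochondria. HSF1 is held inactive in unstressed cells and, when activated, binds arrays of alternating GAA and TTC units in the promoters of its targets. Macrophages use the same machinery, and HSP70 made in response to stress is a commonly used readout of HSF1 activity.

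Library totals ran from 12597829 to 15406722 counts, and 1 count corresponded to 0.0652 to 0.0782 CPM, reads scaled to a common library total with TMM factors. The lowest count of any of the 10 genes in any library was 310, for Dnaja1, and all 10 passed the filter on low counts. Pdpn itself, the gene of the sort marker, was 19.3 ± 7.33 CPM in PDPN-negative and 214.5 ± 22.9 CPM in PDPN-positive libraries and was higher in 5 of 5 tumours. Here and below, a value after ± is the SD over the 5 libraries of a group unless marked as an SE of the fit. The 10 macrophage markers examined were all measurable, with summed levels of 29937 to 35367 CPM in PDPN-negative and 29020 to 32931 CPM in PDPN-positive libraries. In these bulk samples a lower level can mean less RNA per cell or fewer cells of the type that makes it, and these cannot be told apart.

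Without pairing by tumour, Hsph1 and Hsp90ab1 of the 10 genes were called higher in PDPN-positive libraries. With pairing Hsp90aa1 was too, and neither fit called any lower. Hsph1 was 1.55-fold and Hsp90ab1 1.16-fold higher. The inducible HSP70 genes Hspa1a and Hspa1b had larger fitted differences (1.69-fold and 2.08-fold) but varied so much between tumours that neither passed. The call rests on edgeR's quasi-likelihood test over 13595 genes, with Benjamini-Hochberg adjustment and a threshold of 0.05. Thus 2 of 10 were higher, against 6.83% of all genes tested, and 0 of 10 were lower, against 6.77%. At an unadjusted p under 0.05, 5 were higher and 0 lower, counting Hspa1a and Hspa1b separately. For counts at that threshold, here and below, the share of all genes was not computed, so these counts cannot be set against a background. With the tumour as a block in the fit, Hsp90aa1 was called as well, so that 3 of 10 were higher and 0 lower, where 13.8% and 14.3% of all genes were called in these directions. The median log2 fold change of the 10 was 0.17, beside 0.01 over all genes tested. DESeq2 called 4 of 10 higher (Hsph1, Hsp90ab1, Hspa1a and Hspa1b) and 0 lower, with 8.23% and 8.92% of all genes called. DESeq2 with the tumour as a block also called 4 higher, against 8.97%, and 0 lower, against 10.6%. The PDPN-positive library was the higher in all 5 tumours for Hsp90aa1, Hsp90ab1 and Hsph1, which 17.4% of all genes tested also showed, and the lower in all 5 for Hspa8, as for 17.6%. The groups did not overlap for 1 gene higher in PDPN-positive libraries, against 5.38% of all genes, and for 0 lower, against 5.13%.

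**Figure D1:**
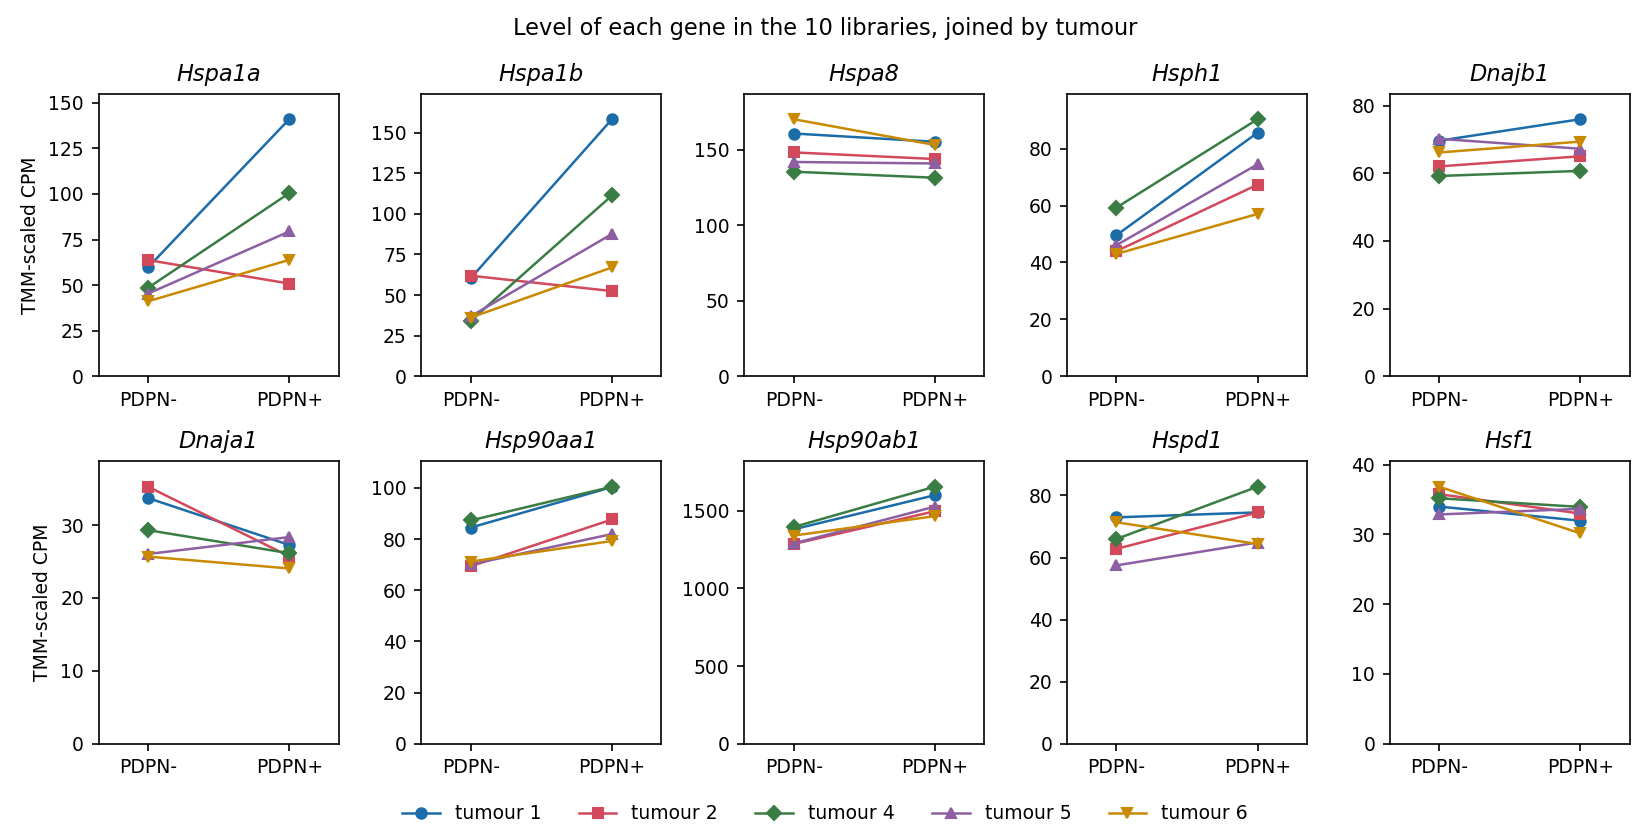
TMM-scaled CPM (vertical axis, from 0, a separate scale in each panel) of the 10 genes in the PDPN-negative and PDPN-positive library of each tumour, with a line joining the libraries of 1 tumour. Hsph1, Hsp90aa1 and Hsp90ab1 rise along all 5 lines, whereas the line of tumour 2 falls for Hspa1a and Hspa1b.

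**Figure D2:**
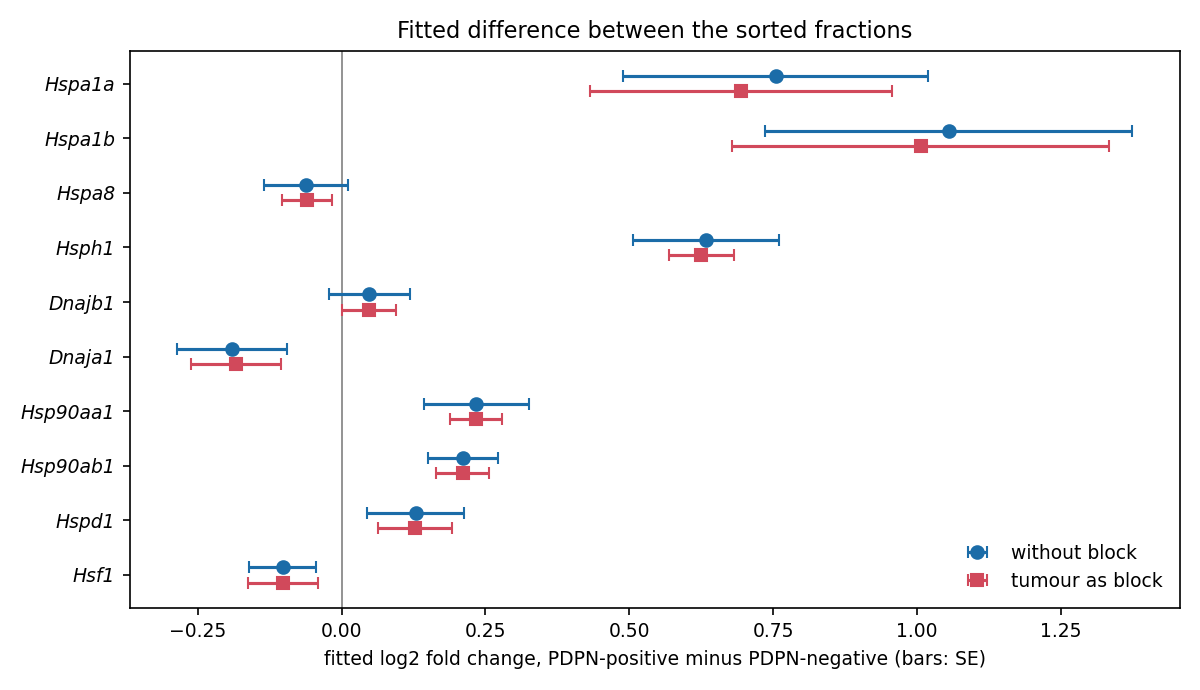
Fitted log2 fold change (horizontal axis, PDPN-positive minus PDPN-negative) with its SE for the 10 genes, without the block (circles) and with the tumour as a block (squares). The estimates lie close together in both fits, at 0.63 and 0.63 for Hsph1, while the SE narrows from 0.13 to 0.06.

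The inducible HSP70 pair came out highest in fold and widest in spread. Hspa1a (ENSMUSG00000091971, GRCm38 chromosome 17, 34969190 to 34972156, minus strand) and Hspa1b (ENSMUSG00000090877, chromosome 17, 34956436 to 34959238, minus strand) are neighbouring protein-coding genes whose products are almost the same stress-induced HSP70. Their promoters were nearly identical too, with 247 of 250 bases before the RefSeq start in common. The last 150 of these bases are shown as a description of the pair. Their part in the values of either gene was not tested. Capitals mark the GAANNTTC match, a pair of facing units of the kind HSF1 binds, found in each.
Hspa1a, chr17:34972157-34972306, minus strand: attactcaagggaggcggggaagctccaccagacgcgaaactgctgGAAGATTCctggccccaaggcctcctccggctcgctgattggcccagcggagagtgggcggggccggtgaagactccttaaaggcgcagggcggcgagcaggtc
Hspa1b, chr17:34959239-34959388, minus strand: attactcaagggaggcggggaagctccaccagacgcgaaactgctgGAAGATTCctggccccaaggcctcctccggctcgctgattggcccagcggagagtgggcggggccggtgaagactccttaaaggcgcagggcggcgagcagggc
Both are RefSeq sequences of GRCm38.p6. Within the stretch shown they differ only by T149G, with the Hspa1a base first and positions counted from 1 at the 5′ end. The match spans bases -104 to -97 before each start. GAANNTTC or TTCNNGAA, searched on both strands, occurs in 12.8% of the 32851 RefSeq windows of 250 bases before a start. The longer array, GAA, TTC and GAA or TTC, GAA and TTC with 2 bases (any) between neighbouring units, contains the shorter match. It was searched in the same way and not found in the 300-base window of either gene, and 0.603% of all such windows hold it. Only exact units were searched, here and below, so an array with an imperfect unit would be missed.

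Hspa1a measured 59.7, 63.7, 48.5, 45.3 and 41.1 CPM in the PDPN-negative libraries of tumours 1, 2, 4, 5 and 6, and 141.0, 50.8, 100.4, 79.4 and 63.8 CPM in the PDPN-positive ones. Hspa1b measured 60.4, 61.9, 34.2, 36.9 and 36.1 CPM against 158.3, 52.4, 111.3, 87.6 and 67.0 CPM in the same order. Both genes were therefore higher in the PDPN-positive library of tumours 1, 4, 5 and 6 and lower in that of tumour 2, and the groups overlapped. The fitted log2 fold change was 0.75 ± 0.26 (SE, edgeR adjusted p = 0.0927) for Hspa1a and 1.05 ± 0.32 (SE, edgeR adjusted p = 0.0583) for Hspa1b. With the tumour as a block the adjusted p was 0.133 and 0.0953. The coefficient of variation between libraries was 18.7% and 30.4% in the PDPN-negative and 40.6% and 43.6% in the PDPN-positive group, the widest of the 10 genes in each group.

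Whether the pair was called depended on tumour 2 and on the test. With all 10 libraries DESeq2 called both (adjusted p = 0.0121 for Hspa1a and 0.0175 for Hspa1b), and with the block it called Hspa1b (0.0127) but not Hspa1a (0.0505). In edgeR without robust dispersions Hspa1b passed (adjusted p = 0.0272) and Hspa1a did not (0.0529). Without its PDPN-positive library both genes passed (log2 fold changes 0.90 and 1.21, edgeR adjusted p = 0.0345 and 0.0302), and they did so without both of its libraries in the blocked fit (0.94 and 1.31, edgeR adjusted p = 1.12e-04 and 4.44e-04) and in the fit without a block (0.98 and 1.34, edgeR adjusted p = 0.0477 and 0.0377), the last of which was chosen after seeing the data. Leaving out any other single library gave no call in edgeR for either gene. Since 66.3% of the 50-base stretches in the annotated transcripts of Hspa1a and 62.3% of those of Hspa1b also occur in another gene, mostly in each other, their separate counts are uncertain. Summed into 1 row, they gave 0.90 ± 0.29 on the log2 scale (SE, edgeR adjusted p = 0.069, and 0.11 with the tumour as a block).

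**Figure D3:**
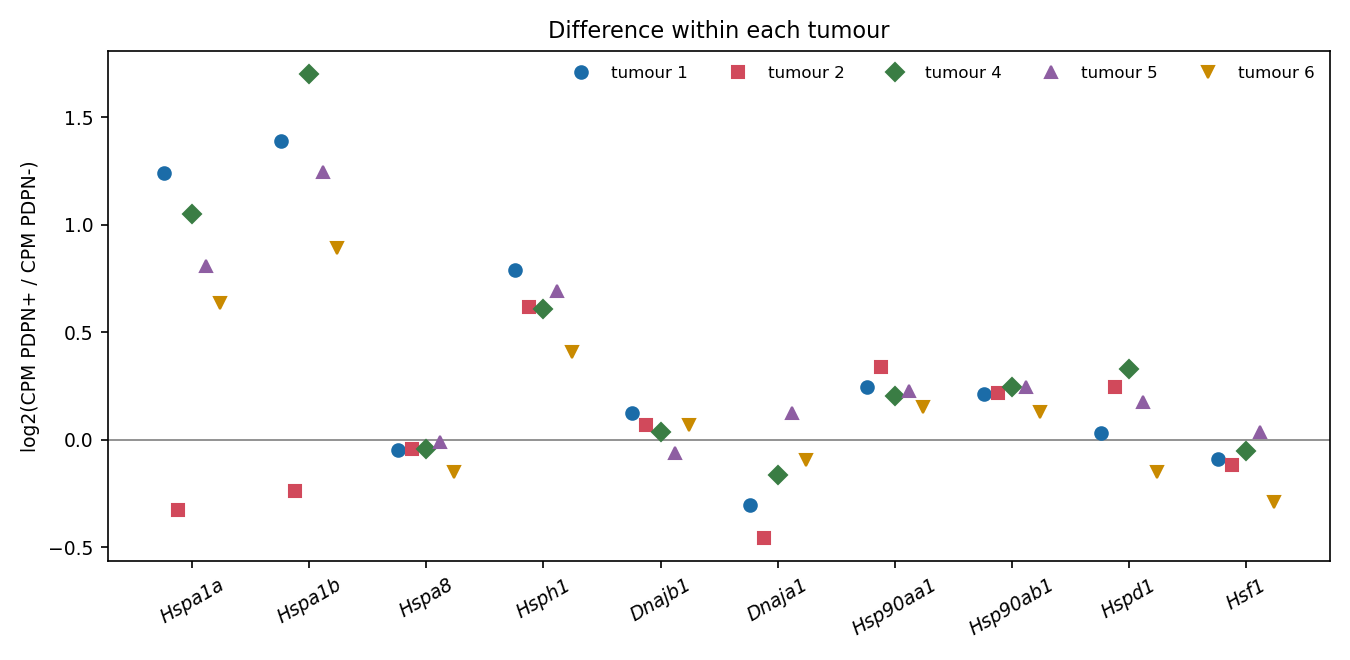
Log2 ratio of CPM in the PDPN-positive to the PDPN-negative library (vertical axis) for each of the 10 genes, 1 point per tumour. Hspa1a runs from -0.33 in tumour 2 to 1.24 in tumour 1 and Hspa1b from -0.24 in tumour 2 to 1.70 in tumour 4, while the 5 points of Hsp90ab1 lie between 0.13 and 0.25.

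Hspa8 (ENSMUSG00000015656, GRCm38 chromosome 9, 40800984 to 40810087, plus strand) encodes HSC70, the constitutive HSP70 that does most everyday folding work. It measured 160.8, 148.3, 135.5, 142.0 and 170.3 CPM in PDPN-negative and 155.4, 143.9, 131.5, 141.0 and 153.2 CPM in PDPN-positive libraries. The second value was the lower in all 5 tumours, by 0.01 to 0.15 on the log2 scale, and the groups overlapped. No call was made (log2 fold change -0.06 ± 0.07 SE, edgeR adjusted p = 0.625, 95% interval -0.22 to 0.09), so that a rise of the size fitted for Hspa1a lies outside the interval.

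Within each library, the counts of Hspa1a plus Hspa1b were set against those of Hspa8, a ratio that scaling between libraries cannot move. The ratio was 0.747, 0.847, 0.610, 0.579 and 0.453 in the PDPN-negative libraries and 1.93, 0.718, 1.61, 1.18 and 0.854 in the PDPN-positive ones. It was higher in 4 of 5 tumours, by 0.89 on the log2 scale on average (two-sided exact permutation p = 0.0317, adjusted over the 3 ratios 0.0952). By pairs the exact permutation p was 0.125, where 0.0625 is the smallest that 5 pairs allow. In tumour 2 the log2 difference was -0.24, so this ratio too varied with the tumour.

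Hsph1 gave the clearest difference of the 10. The gene (ENSMUSG00000029657, GRCm38 chromosome 5, 149614287 to 149636376, minus strand) encodes HSP105, an HSP110 protein that releases nucleotide from HSP70 and is itself heat-inducible. Levels of 49.6, 43.97, 59.3, 46.1 and 43.0 CPM in PDPN-negative libraries stood against 85.7, 67.4, 90.4, 74.5 and 57.1 CPM in PDPN-positive ones. The PDPN-positive library was higher in all 5 tumours, including tumour 2, and only the PDPN-positive library of tumour 6 fell below a PDPN-negative one, that of tumour 4. The log2 fold change was 0.63 ± 0.13 (SE, edgeR adjusted p = 0.00706, and 2.84e-06 with the tumour as a block). It was called on leaving out each of the 10 libraries in turn, with adjusted p no higher than 0.0228. No 50-base stretch of its transcripts occurs in another annotated gene, so its count is not divided with a copy. Alternating units lie just past its start, where a 13-base match, all in capitals because all of it is the motif, runs from base 37 to base 49 after the upstream RefSeq start. Any part of this match in the level of Hsph1 was not tested.
Hsph1, chr5:149636288-149636300, minus strand: TTCTGGAAAGTTC

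The HSP40 genes in the set stayed without a call. No match to either motif was found in the RefSeq windows of Dnajb1, while 1 of the 3 windows of Dnaja1 held the shorter match, from base -124 before its start. These matches are given as a description, and any part of them in the levels was not tested. Dnajb1 (ENSMUSG00000005483, GRCm38 chromosome 8, 83608193 to 83612653, plus strand) encodes the heat-inducible HSP40 of the cytosol. It measured 69.7, 62.1, 59.2, 70.2 and 66.2 CPM in PDPN-negative and 76.0, 65.1, 60.7, 67.3 and 69.4 CPM in PDPN-positive libraries. These values overlapped almost fully (log2 fold change 0.05 ± 0.07 SE, edgeR adjusted p = 0.701, 95% interval -0.10 to 0.20). The interval leaves out the fitted value of Hsph1, although both genes are classed as heat-inducible.

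Dnaja1 (ENSMUSG00000028410, GRCm38 chromosome 4, 40722150 to 40737149, plus strand) encodes a constitutive HSP40 of the other main subfamily. Its levels were 33.7, 35.3, 29.3, 26.03 and 25.7 CPM in PDPN-negative and 27.3, 25.7, 26.1, 28.3 and 24.0 CPM in PDPN-positive libraries. The value was lower in 4 of 5 tumours and higher in tumour 5, and did not pass (log2 fold change -0.19 ± 0.10 SE, edgeR adjusted p = 0.216). In the blocked fit without tumour 5 it was called lower (-0.26, edgeR adjusted p = 0.0286). Its exons share 608 bases with those of Smu1 on the opposite strand, which had 740 to 928 counts per library, and whether counting used strand is not stated. The ratio of Dnajb1 to Dnaja1 counts differed by 0.23 on the log2 scale (two-sided exact permutation p = 0.135, adjusted 0.202), with 4 of 5 tumours higher.

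The HSP90 genes of the set were higher by a small amount in every tumour, and without the block only Hsp90ab1 was called. Hsp90ab1 (ENSMUSG00000023944, GRCm38 chromosome 17, 45567775 to 45573271, minus strand) encodes the constitutive HSP90 beta. Its PDPN-negative libraries held 1380.5, 1286, 1395, 1289 and 1340.1 CPM and its PDPN-positive libraries 1600.4, 1497, 1655, 1527 and 1465 CPM. Every PDPN-positive library lay above every PDPN-negative one. The log2 fold change was 0.21 ± 0.06 (SE, edgeR adjusted p = 0.0384, and 0.00366 with the tumour as a block). Without the block the call was narrow: it ended when any of 8 libraries was omitted, all but PDPN-negative tumour 1 and PDPN-positive tumour 6, with adjusted p up to 0.115. In the blocked fit it held without any 1 tumour.

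Hsp90aa1 (ENSMUSG00000021270, GRCm38 chromosome 12, 110690605 to 110702728, minus strand) encodes HSP90 alpha, the stress-inducible form. It measured 84.5, 69.4, 87.3, 70.1 and 71.2 CPM against 100.3, 87.7, 100.5, 82.0 and 79.2 CPM. The PDPN-positive library was the higher in all 5 tumours, and the groups overlapped, with tumours 1 and 4 high in both fractions. The log2 fold change of 0.23 ± 0.09 did not pass without the block (SE, edgeR adjusted p = 0.109) and passed with it (edgeR adjusted p = 0.00171). Of its 50-base stretches, 47.5% also occur in another gene, mostly in the pseudogene Gm12346, so the level is uncertain.

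No difference was found in the proportion of the inducible to the constitutive HSP90 gene. The ratio of Hsp90aa1 to Hsp90ab1 counts averaged -4.14 ± 0.11 on the log2 scale in PDPN-negative and -4.11 ± 0.10 in the PDPN-positive ones (two-sided exact permutation p = 0.786, as after adjustment). The difference within tumours ran from -0.04 to 0.12, with 3 of 5 higher.

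**Figure D4:**
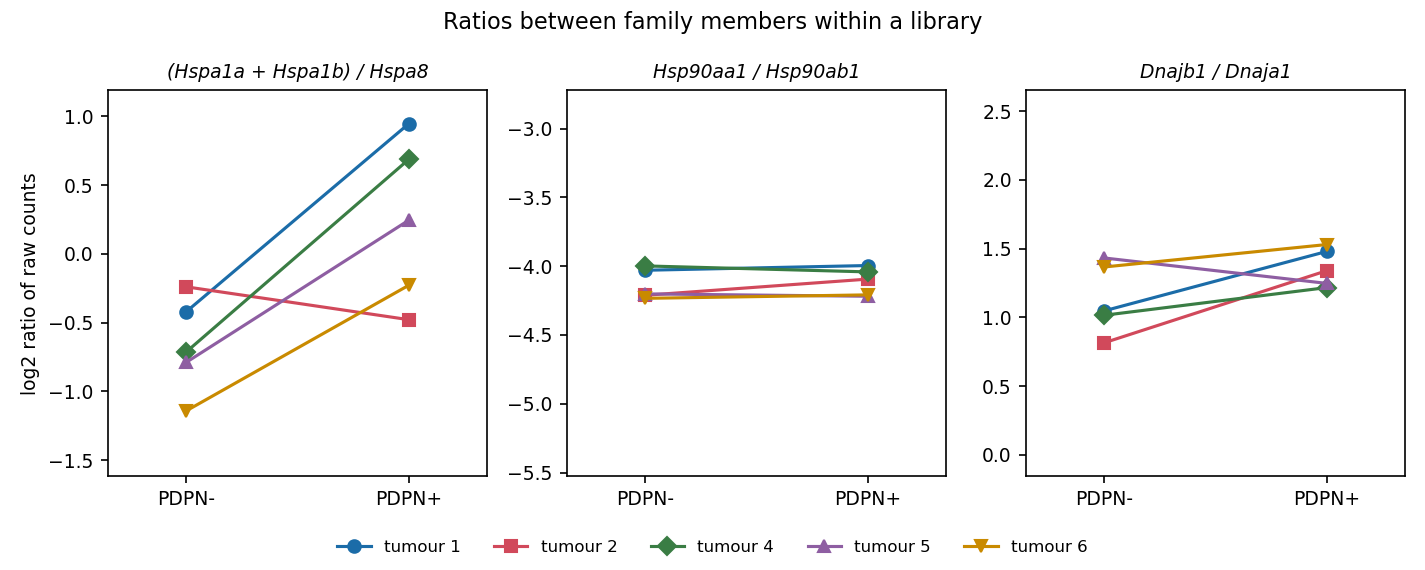
Log2 ratio of raw counts (vertical axis, the same span in each panel) of Hspa1a plus Hspa1b to Hspa8, of Hsp90aa1 to Hsp90ab1 and of Dnajb1 to Dnaja1 in each library, joined by tumour. The HSP70 ratio rises in 4 of 5 tumours and falls in tumour 2, while the HSP90 ratio is nearly flat.

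Hspd1 (ENSMUSG00000025980, GRCm38 chromosome 1, 55077835 to 55088243, minus strand) encodes HSP60, the chaperonin of the mitochondrial matrix. It was 72.9, 62.8, 66.0, 57.5 and 71.4 CPM in PDPN-negative and 74.6, 74.5, 82.8, 64.8 and 64.4 CPM in PDPN-positive libraries. The gene was higher in 4 of 5 tumours and lower in tumour 6, and did not pass (log2 fold change 0.13 ± 0.08 SE, edgeR adjusted p = 0.351). In the blocked fit without tumour 6 it was called (0.20, edgeR adjusted p = 0.0204). Near its downstream RefSeq start lies an array of 4 alternating units, shown in capitals with 6 bases on either side because it is the only long array found upstream of a start among the genes with a RefSeq window.
Hspd1, chr1:55088053-55088082, minus strand: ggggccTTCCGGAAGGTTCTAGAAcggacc
The array spans bases -144 to -127 before that start and lies inside an exon of a GENCODE transcript that begins further upstream. Any part of the array in the level of Hspd1 was not tested. Hspe1, the co-chaperonin gene that starts on the other strand beside Hspd1, averaged 11.5 CPM against 12.9 CPM, or 0.17 ± 0.11 on the log2 scale (SE, edgeR adjusted p = 0.357). RefSeq windows were at hand for Hspa1a, Hspa1b, Hsph1, Dnajb1, Dnaja1 and Hspd1, and not for Hspa8, Hsp90aa1, Hsp90ab1 and Hsf1.

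Hsf1 itself (ENSMUSG00000022556, GRCm38 chromosome 15, 76477422 to 76501913, plus strand) varied little between libraries. It measured 34.0, 35.8, 35.2, 32.9 and 36.9 CPM in PDPN-negative and 31.97, 33.0, 34.0, 33.7 and 30.2 CPM in PDPN-positive libraries. The groups overlapped, with the gene lower in 4 of 5 tumours. The coefficient of variation was 4.43% and 4.73%, and the log2 fold change was -0.10 ± 0.06 (SE, edgeR adjusted p = 0.277, 95% interval -0.23 to 0.02). The factor is controlled largely at the protein level, which these data do not measure.

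Per exonic length, on the TPM scale, which corrects counts for gene length, Hsp90ab1 stood far above the rest, at 1309 ± 69.7 in PDPN-negative and 1512 ± 110.9 TPM in PDPN-positive libraries. Hspa8 measured 103.1 ± 9.38 and 98.5 ± 5.15 TPM, second in PDPN-negative libraries, while in PDPN-positive ones Hspa1b had a like mean with a far wider spread (99.9 ± 44.5 TPM). Hspd1, Hspa1b, Hspa1a, Hsp90aa1 and Dnajb1 made up the middle, with means of 48.0 to 73.4 TPM in PDPN-negative and 61.8 to 99.9 TPM in PDPN-positive libraries. In this middle group no gene exceeded the next in all 10 libraries, and Hspa1b, which was above Hspd1 in 0 of 5 PDPN-negative libraries, was above it in 3 of 5 PDPN-positive ones. Hsph1, Hsf1 and Dnaja1 were lowest, at 19.5, 14.4 and 10.2 TPM in PDPN-negative libraries, each above the next in all 10 libraries. Reads shared with pseudogenes limit these levels for Hspa8, Hspd1 and Dnaja1 too, of whose 50-base stretches 39.4%, 42.1% and 20.6% occur in another gene.

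Beyond these 10, the wider chaperone system was read from lists of genes. Of 90 further genes in 10 lists, 82 were tested. Of these 7 were higher and 2 lower, where 6.83% and 6.77% of all genes were called in these directions. In either direction 10.98% were called, against 13.6% of all genes tested. The blocked fit called 24 of the 82 higher and 3 lower, where 13.8% and 14.3% of all genes were called in these directions. In either direction it called 32.9%, against 28.2% of all genes. The median log2 fold change over the 82 was 0.10. For each list of genes below, 6.83% of all genes tested were called higher and 6.77% lower. With the block these shares were 13.8% and 14.3%.

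Among the HSP70 and HSP110 relatives, 1 of 6 tested was higher: Hspa4l, another heat-inducible HSP110 gene, had 42.4 ± 4.65 CPM in PDPN-negative and 52.2 ± 3.83 CPM in the other libraries (edgeR adjusted p = 0.0262). All 5 tumours moved that way. Without the block, omitting any of 6 libraries ended the call, with edgeR adjusted p up to 0.0726. In the blocked fit Hspa4l had edgeR adjusted p = 0.00105 and kept its call without any 1 tumour. Of 14 further HSP40 genes 2 were lower and 0 higher (2 higher at an unadjusted p under 0.05, 0 with DESeq2). With the block 3 of these 14 were lower and 2 higher. Dnajb4, an HSP40 gene of the same subfamily as Dnajb1, fell from 24.7 ± 1.32 to 18.8 ± 1.79 CPM with no overlap between groups (edgeR adjusted p = 0.00569), and kept its call without any 1 library. Dnajb14, which encodes an HSP40 of the endoplasmic reticulum membrane, fell from 83.5 ± 7.01 to 71.3 ± 3.66 CPM (edgeR adjusted p = 0.0364, and up to 0.0971 on leaving out any of 7 libraries). With the block Dnajb14 had edgeR adjusted p = 0.00797 and was called without any 1 tumour.

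The cytosolic chaperonin CCT folds actin and tubulin with the help of prefoldin. Of 14 genes of this system 3 were higher, against 6.83% of all genes, and 0 lower (0 lower also at an unadjusted p under 0.05 and with DESeq2). These were Pfdn1, a prefoldin subunit gene, at 35.7 ± 3.26 against 28.8 ± 1.88 CPM (edgeR adjusted p = 0.0157), and the CCT subunit genes Cct7 and Tcp1, 1.18-fold and 1.17-fold higher (edgeR adjusted p = 0.0288 and 0.0403). Pfdn1 kept its call without any 1 library, whereas omitting any of 6 libraries ended that of Cct7 and any of 8 that of Tcp1. With the block Cct7 and Tcp1 had edgeR adjusted p = 0.00137 and 0.00384, and both were called without any 1 tumour.

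The co-chaperone lists had no call without the block. For HSP90 co-chaperones 0 of 11 were called (3 higher at an unadjusted p under 0.05, 1 higher with DESeq2), and for HSP70 co-chaperones 0 of 9 (3 higher and 0 with DESeq2). The blocked fit called 3 of each list higher and 0 lower, where it called 13.8% and 14.3% of all genes. The lowest p-values belonged to Fkbp5, a glucocorticoid-induced immunophilin gene, at 40.0 ± 8.60 against 54.0 ± 6.36 CPM (edgeR adjusted p = 0.0543, and 8.92e-05 with the block), and to Stip1, whose product joins HSP70 to HSP90 (edgeR adjusted p = 0.137, and 0.0151 with the block). Of the HSP70 co-chaperones, Bag1, a nucleotide exchange factor gene, and St13 had adjusted p = 0.0869 and 0.161 in edgeR, and 0.00228 and 0.0213 with the block.

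In the mitochondrial list 1 of 9 was higher, the protease gene Lonp1 (80.7 ± 5.17 against 70.9 ± 2.13 CPM, edgeR adjusted p = 0.0432, up to 0.119 on leaving out any of 8 libraries). With the block 3 were higher, against 13.8% of all genes. For Lonp1 the blocked fit gave edgeR adjusted p = 0.0151, a call that ended without tumour 1 or tumour 4. Among small heat shock proteins 3 of 8 could be tested and 0 were called (0 also at an unadjusted p under 0.05 and with DESeq2), whereas the blocked fit called Hspb6 higher. Hspb6 and Hspb8 had the lowest p-values there, with log2 fold changes of 0.41 ± 0.21 and 0.24 ± 0.24 (SE). For Hspb6 the edgeR adjusted p was 0.224, and 0.0346 with the block, and 5 of 5 tumours were higher. Of the other heat shock factors, Hsf4 was 1.148 ± 0.466 against 1.98 ± 0.330 CPM (edgeR adjusted p = 0.0739, and 0.0274 with the block), and Hsbp1, which encodes an HSF1-binding protein, differed by 0.10 ± 0.09 on the log2 scale (SE, edgeR adjusted p = 0.519). Thus 0 of 3 tested in that list were called (1 higher at an unadjusted p under 0.05, 0 with DESeq2).

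Chaperones of the endoplasmic reticulum gave the largest call outside the 10 genes. Of 13 tested 2 were higher and 0 lower (0 lower also at an unadjusted p under 0.05 and with DESeq2). With the block 6 were higher, against 13.8% of all genes. Serpinh1, which encodes HSP47, a chaperone dedicated to procollagen and a textbook heat shock gene, rose from 5.64 ± 0.362 to 12.1 ± 1.44 CPM with no overlap between groups (2.14-fold, edgeR adjusted p = 3.87e-05). Pdia4, a disulfide isomerase gene, rose from 223.4 ± 20.9 to 291.3 ± 24.6 CPM (edgeR adjusted p = 0.00689). Fibroblast markers, a cell type that makes much HSP47, were higher in the same libraries: 11 of 12 passed, and their summed level was 33.3 to 44.04 CPM in PDPN-negative and 295.0 to 478.5 CPM in PDPN-positive libraries. Their part in these results was not tested.

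A list of 11 other heat-inducible genes, which overlaps the lists above, had 10 tested, of which 2 were higher (Hspa4l and Serpinh1) and 1 lower (Dnajb4). With the block 4 were higher and 1 lower, and the median log2 fold change was 0.11 without it. So the heat-inducible genes, like the 10 chaperone genes, did not move as 1 block: Hsph1, Hspa4l and Serpinh1 rose, Dnajb4 fell, and Dnajb1 had a log2 fold change of 0.05.

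Immediate early genes, transcription factors and regulators switched on quickly by many stimuli and often read beside heat shock genes as a sign of cell stress, went in the other direction. Of 19 tested 13 were lower, against 6.77% of all genes, and 0 higher (0 higher also at an unadjusted p under 0.05 and with DESeq2). Their median log2 fold change was -0.58. Summed over the list, PDPN-negative libraries held 15599 to 19758 CPM and PDPN-positive libraries 11256 to 11902 CPM, without overlap and lower in 5 of 5 tumours. Btg2, an antiproliferative gene, fell from 931.2 ± 98.8 to 464.6 ± 50.5 CPM (edgeR adjusted p = 2.8e-05). Nr4a1, a nuclear receptor gene, and the AP-1 genes Fosb and Junb fell by 0.66, 0.72 and 0.51 on the log2 scale. In tumour 2, where Hspa1a and Hspa1b were lower in the PDPN-positive library, the summed immediate early level was 17817 and 11477 CPM, a fall within the range of the other tumours. Any link of these genes to the chaperone values or to the mix of cells was not tested.

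**Figure D5:**
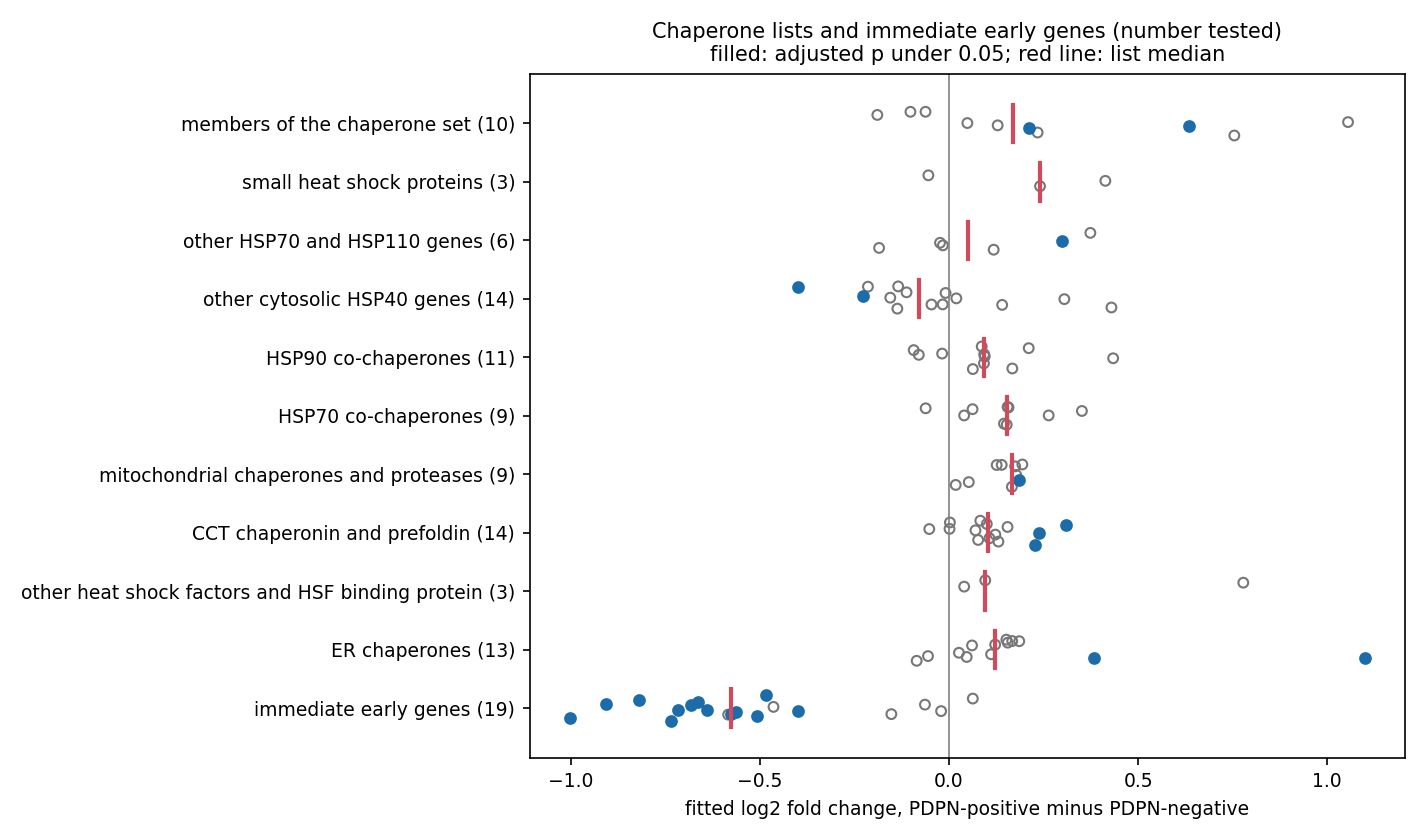
Fitted log2 fold change (horizontal axis, PDPN-positive minus PDPN-negative) of every tested gene of the 10 chaperone genes, of the further chaperone lists (except the overlapping list of other heat-inducible genes) and of the immediate early genes, with filled points for an edgeR adjusted p under 0.05 and a red line at the list median. The medians of the chaperone lists lie between -0.08 and 0.24, and that of the immediate early genes at -0.58.

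Markers of other cell types shifted between the fractions as well. Beside the fibroblast markers, eosinophil markers were lower (4 of 5 tested, summed 58.6 to 148.8 CPM in PDPN-negative and 4.76 to 14.4 CPM in PDPN-positive libraries), and 3 of 8 monocyte markers were lower ( summed 1608 to 2399 and 1428 to 1597 CPM). For fibroblasts the summed level in the PDPN-positive library of tumour 2, 295.0 CPM, was the lowest of the 5, and that of tumour 1, 478.5 CPM, the highest, as for Hspa1a and Hspa1b. The order differed in between: tumour 4, second highest for both genes, was second lowest for the fibroblast markers (364.8 CPM, against 431.3 and 421.6 CPM in tumours 5 and 6). Their part in the chaperone values was not tested. Neutrophil markers had 6 of 8 lower and 1 higher, with summed levels that overlapped (388.2 to 560.2 and 310.1 to 652.4 CPM). Macrophage markers had 1 of 10 lower. Of mast cell and basophil markers 2 of 2 tested were lower, and of conventional dendritic cell markers 2 of 7. For T and NK cells and for B and plasma cells 1 marker each was tested, and it was lower. Of blood endothelial markers 1 of 4 tested was higher. Of epithelial and tumour cell markers 0 of 8 were called. Summed levels of these last lists were higher in 5 of 5 tumours. The part of these cell types was not tested.

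The mean log2 level of Hspa1a, Hspa1b, Hsph1 and Dnajb1, each centred over the 10 libraries, was used to find genes of a like pattern among 9707 genes whose log2 CPM averaged 3 or more. The mean mostly followed Hspa1a and Hspa1b (r = 0.98 and 0.99 with it), less so Hsph1 (0.85), and Dnajb1 little (0.35). Nearest were Ndc80, a kinetochore gene (Pearson r = 0.94), Tecpr1 (0.94), Calm3, a calmodulin gene (0.94), Ttc3 (0.93) and Ube2o (0.93), over 10 libraries. These values include the difference between the fractions, and the libraries come in pairs from 5 tumours. After each library was centred on the mean of its fraction, Slc13a3 (0.94), Calm3 (0.92), Atg2b (0.91), Hdac6 (0.90) and Faap20 (0.90) came first, so that Calm3 alone appeared in both. With 1 library left out the lowest r was 0.88 in the first set and 0.85 in the second. The same 10 libraries picked these genes out of 9707, so high values were built in. No chance level was computed.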

How the data were processed

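Raw read counts per gene were deposited by the authors in 1 table, whose 10 columns were matched to samples by title. The tools named per the submitters' processing notes are featureCounts 1.5.3, STAR 2.5.2b, cutadapt 1.15 and Bowtie2 2.3.3.1. Settings, genome build, strand and the handling of multi-mapping reads were not given in the sources used here. Per the labels' protocols RNA was pre-amplified with SMART-Seq, so counts are reads, not molecules.

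The test was edgeR 4.0.16 (R 4.3.3): filterByExpr by group (minimum count 10, minimum total 15), TMM, and a robust quasi-likelihood fit with the fraction as its only term, adjusted over 13595 genes. The tumour as a block was the planned second fit. Same-numbered libraries come from the same tumour per the labels, and their deviations from the group means correlated at 0.24 to 0.50. Between the fractions of different tumours the correlation was at most 0.087. SE were derived from the F statistic. The scripts were tested on simulated data. Other alternatives were DESeq2 1.42.0, other scalings, no filter, dispersions not robust, Hspa1a and Hspa1b summed, and libraries or tumours left out. TPM used exonic lengths of GENCODE M21 (GRCm38), and promoters came from RefSeq (GRCm38.p6). That build is not stated for the counts.

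Members and lists were chosen with earlier results of these data known. Named were the 10 genes, Pdpn, for each list up to 4 called genes in order of p (2 if it had no call) and the 5 genes most alike in each pattern. Hspe1, Smu1, Gm12346, Gm20481 and Hspb1 were named outside this rule after their values were seen.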

Additional observations from a re-analysis of the deposited data

Results flagged for a closer look

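In 43 sets of 5 values (libraries of a group, or differences by tumour), the highest and the lowest value were compared with the nearest of the others, a comparison that by chance marks about 1 set in 20. Both values it marked came from tumour 6. There the log2 difference of Hspa8 was -0.15, against -0.05 to -0.01 in the other tumours, and that of Hsp90ab1 was 0.13, against 0.21 to 0.25.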

How the results depend on the processing

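No result of an edgeR or DESeq2 fit changed direction for the 10 genes or the 22 other named genes under any alternative run, but calls moved. Of the 10 genes, the number higher (2) was 1 with library size alone (Hsph1) and 1 with no filter on low counts (Hsph1), 3 with dispersions not robust (Hspa1b added), 4 with DESeq2 and 4 with DESeq2 and the replicate block (where Hsp90aa1 replaced Hspa1a), 1 to 3 with 1 library left out, and 3 to 5 in the blocked fit with 1 tumour left out, where 0 to 1 were lower. Over all genes 929 were higher and 920 lower. With the replicate block these were 1880 and 1950, with DESeq2 and the replicate block 1445 were lower, with 1 library left out 617 to 1049 and 577 to 1026, and with the block and 1 tumour left out 1360 to 1925 and 1380 to 2016 (1505 and 1692 without tumour 1, 1447 and 1677 without tumour 4, 1398 and 1564 without tumour 5). The lowest counts with 1 library left out came without PDPN-positive tumour 4 (617 higher, 588 lower) and PDPN-negative tumour 2 (577 lower). Without both libraries of tumour 2 and without the block, chosen after seeing the data, they were 514 and 503. Of the other chaperone genes, 7 higher and 2 lower became 24 and 3 with the replicate block, 14 higher with DESeq2 and the replicate block, 1 lower with library size alone, 3 to 10 and 1 to 2 with 1 library left out, 11 to 24 (15, 11, 14, 16 and 24 without tumours 1, 2, 4, 5 and 6) and 2 to 3 with the block and 1 tumour left out, and 4 and 1 without tumour 2 and without the block. The log2 ratio of Hsp90aa1 to Hsp90ab1, 0.02, ran from -0.00576 to 0.0575 with 1 library left out (-0.00576 without PDPN-positive tumour 1, -0.0014 without PDPN-negative tumour 6). That of Hspa1a plus Hspa1b to Hspa8, 0.89, ran from 0.72 to 1.07, and that of Dnajb1 to Dnaja1, 0.23, from 0.15 to 0.30. The lowest count of the 10 genes was 310, and reads shared with near-identical copies limit several of them. The cause of each moved count was not tested.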

Other observations

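The split of counts between Hspa1a and Hspa1b was looked at after the values were seen and is given as a description. Hspa1a held 49.7%, 50.7%, 58.6%, 55.1% and 53.2% of the counts of both genes in the PDPN-negative libraries of tumours 1, 2, 4, 5 and 6, and 47.1%, 49.2%, 47.4%, 47.5% and 48.8% in the PDPN-positive ones, lower in 5 of 5 tumours with no overlap between groups. Exons of Hspa1a share 564 bases with those of Gm20481 on the opposite strand, which had 9 to 34 counts per library. Its part in the split was not tested.

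Hspb1, which encodes the small heat shock protein HSP25 and is heat-inducible, lay below the filter. It had 1, 2, 2, 5 and 0 counts in the PDPN-negative and 20, 6, 22, 7 and 1 counts in the PDPN-positive libraries of tumours 1, 2, 4, 5 and 6, or 10 and 56 counts in all. The tumours with the largest counts, 1 and 4, were also those with the highest Hspa1a, Hspa1b and Hsph1 levels in the PDPN-positive fraction.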
